A study of Mus musculus with 8 samples.

Results

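The 10 apolipoprotein genes described here, Apoa1, Apoa2, Apoa4, Apoa5, Apob, Apoc1, Apoc2, Apoc3, Apoe and Apom, encode proteins of circulating lipoprotein particles made by the mouse liver. They were picked by gene name and were 10 of the 53816 gene IDs in the expression tables, and all 10 were among the 13055 genes tested, those averaging 1 TPM or more over the libraries. TPM is a transcript level corrected for gene length and scaled to the same total in each library. Liver RNA was sequenced from 4 mice labelled as overexpressing Myc in the endothelium, with the genotype given as LSEC Myc overexpression, and from 4 wild-type (WT) controls. All 8 mice had undergone bile duct ligation, surgery that blocks the outflow of bile and brings on cholestatic injury and scarring, so the controls are injured livers and no unoperated liver was compared. The sources used here state neither the promoter that drives Myc or its Cre nor the strain, age, sex or time after surgery.

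Apolipoproteins are the proteins that coat lipoprotein particles, keep their lipid in solution and steer them to enzymes and receptors. The hepatocyte makes very low density lipoprotein (VLDL) around apolipoprotein B, secretes the apolipoprotein A-I and A-II of high density lipoprotein (HDL), and is the main source of the small exchangeable apolipoproteins that speed or slow the hydrolysis of triglyceride in plasma. Apolipoprotein E directs remnant particles back to receptors on the hepatocyte, and macrophages make it too.

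Myc itself, the gene named in the label, had 339, 356, 25.6 and 249 TPM in Myc-labelled livers 1 to 4, against 272, 207, 554 and 89.2 TPM in controls 1 to 4. The groups overlapped, the highest level was in control 3 and the lowest in Myc-labelled liver 3, so the label could not be read from whole-liver Myc RNA, and the libraries are called Myc-labelled throughout. Of 20 hepatocyte markers all 20 were expressed, with a summed level of 135784 to 189234 TPM in Myc-labelled livers and 153987 to 197223 TPM in controls, and all 10 sinusoidal endothelial markers were expressed as well. Each library held an estimated 5.295 to 6.739 Gb of aligned sequence. Xist, the RNA of the inactive X chromosome in female cells, was at 43.3, 33.6, 0.0574 and 0.0454 TPM in Myc-labelled livers 1 to 4, against 32.8, 41.0, 0.0543 and 35.2 TPM in controls 1 to 4. The libraries thus fell into 5 with high Xist and 3 near 0 (Myc-labelled 3 and 4 and control 3), with 1 control among the 3. Mitochondrially encoded genes took 10.02% to 11.2% of the signal in Myc-labelled livers and 7.73% to 9.60% in controls, without overlap (exact permutation p = 0.0286, the smallest that 4 against 4 allows, and 0.40 after adjustment over 14 library measures). Other cells varied more between livers. Summed cholangiocyte markers were at 135 to 986 TPM in Myc-labelled livers and 113 to 342 TPM in controls. Neutrophil markers were at 28.4 to 163 TPM in Myc-labelled livers and 14.6 to 73.3 TPM in controls. No marker of either was called, and neither was any other gene. In the log2 difference, 8 of 8 tested neutrophil markers were above 0 (median 0.69). For 3 of them the unadjusted limma p was under 0.05 (1.86% of all genes). Groups did not overlap for 1 of the 8, and for 1 of 20 hepatocyte markers, Hal, which was lower in Myc-labelled livers. Cholangiocyte markers had 7 estimates above 0 and 1 below, stellate cell markers 9 and 1, and hepatocyte markers 8 and 12. In bulk liver, fewer cells of a type and less RNA per cell cannot be told apart.

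None of the 10 genes differed between Myc-labelled livers and controls in limma's test with Benjamini-Hochberg adjustment, where 0% of all genes were called as well (0 of 13055). At an unadjusted p under 0.05 the count was 0 of 10, beside 1.86% of all genes (243 of 13055). Groups that did not overlap were found for 0 of the 10, beside 1.26% of all genes (0.322% with the Myc-labelled group lower). Each of the 10 estimates lay below 0, between -0.40 for Apoc3 and -0.06 for Apoa2 and Apom on the log2(TPM + 1) scale, with a median of -0.14, whereas 42% of all genes had an estimate below 0 and the median of all genes was 0.04. The common direction differed between the libraries of like Xist level. Among the 3 near 0 (2 Myc-labelled, 1 control) 10 of 10 differences were below 0, each set against control 3 alone, and among the 5 with high Xist (2 Myc-labelled, 3 control) 2 of 10 were, Apoa1 at -0.14 and Apoc3 at -0.08. With Xist as a term in the limma fit 9 of 10 were below 0 (median -0.12), and with library weights 6 of 10 were. The direction did not hold against every reference. As a ratio to albumin (Alb) RNA, 2 of 10 differences were below 0 and 8 above (median 0.12, smallest exact permutation p = 0.457, adjusted 0.952), and as a ratio to 7 secreted hepatocyte genes 7 were below 0 and 3 above (median -0.02, smallest exact permutation p = 0.229, adjusted 0.971). Alb itself ran from 41497 to 95736 TPM over the libraries, and its own log2 difference was -0.26 ± 0.28 (SE). A ratio to Alb carries that difference, so members with estimates closer to 0 than that of Alb come out above 0.

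**Figure D1:**
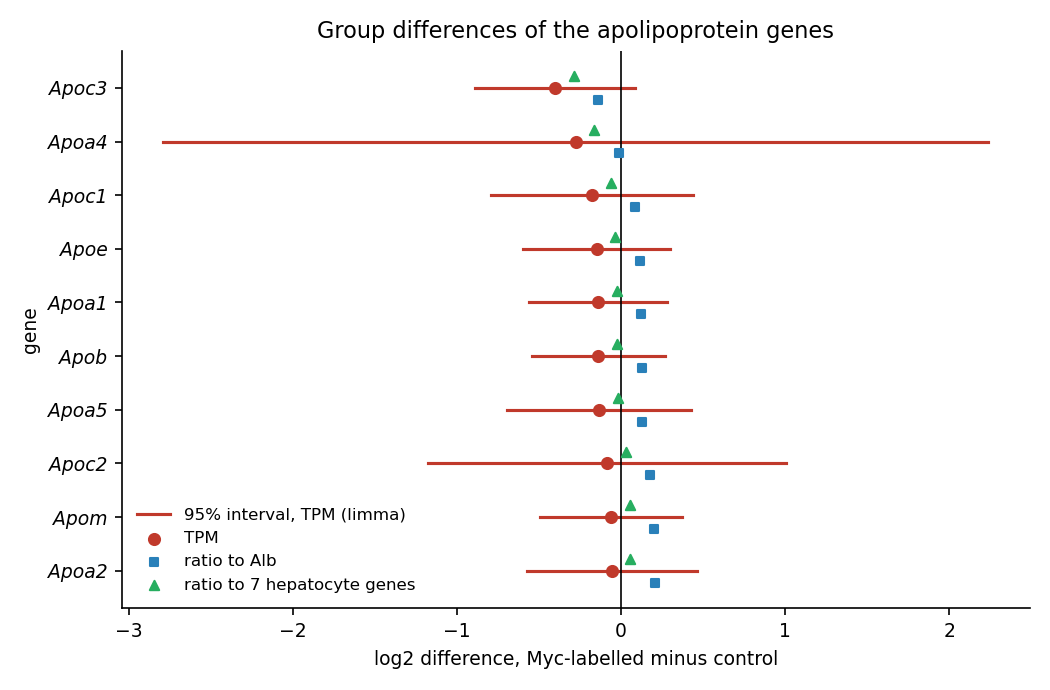
The log2 difference of each gene, Myc-labelled minus control, on the log2(TPM + 1) scale, with its limma 95% interval. All 10 TPM estimates lie left of 0 and all 10 intervals cross it, with Apoa4 the widest (-2.79 to 2.24). Squares show the difference as a ratio to Alb, 8 of them right of 0. Triangles show it as a ratio to 7 hepatocyte genes, 3 of them right of 0.

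Together the 10 genes gave 42536, 51208, 37029 and 40612 TPM in Myc-labelled livers 1 to 4, against 51324, 40810, 49573 and 46774 TPM in controls 1 to 4. The groups overlapped, with the lowest sum in Myc-labelled liver 3 and the next 2 in Myc-labelled liver 4 and control 2. This was 3.70% to 5.12% of all TPM in Myc-labelled livers and 4.08% to 5.13% in controls, and the ratio of the means was 0.909. Apoe and Apoa1 made up 65.9% to 76.1% of the sum in Myc-labelled livers and 67.7% to 73.7% in controls. In Myc-labelled liver 3, Apoa1 alone was 41.8% of the sum, against 26.0% to 31.3% in the other 7 libraries.

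Over all 8 libraries the mean levels ran from Apoe at 18195 TPM through Apoa1 at 13581, Apoa2 at 4347, Apoc1 at 3038, Apoc3 at 2691, Apoa5 at 1191, Apoa4 at 802, Apob at 440 and Apoc2 at 439 to Apom at 259 TPM. Neighbours in this order whose ranges did not overlap were Apoa1 above Apoa2 and Apoc3 above Apoa5. Apoe was above Apoa1 in 7 of 8 libraries, the exception being Myc-labelled liver 3, and Apoa4 was above Apob in only 2 of 8. The order of Apoa4, Apob and Apoc2 by their means is therefore not the order within most libraries.

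**Figure D2:**
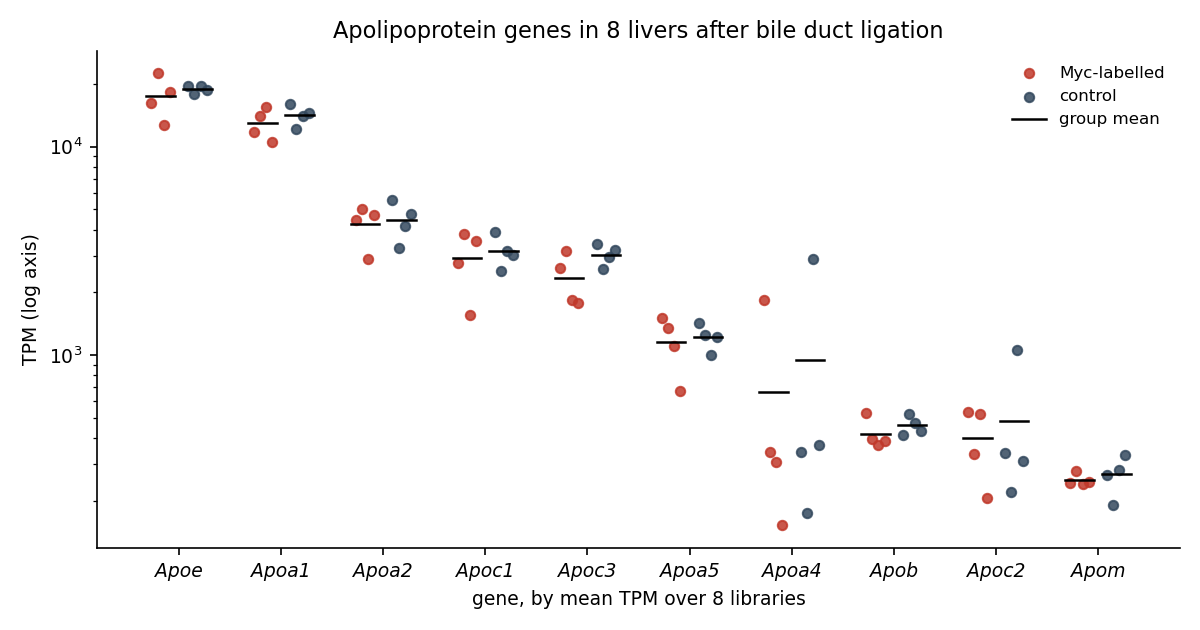
TPM on a log axis for each of the 10 genes, with Myc-labelled livers left of controls, 1 point a liver and a bar at the mean. Apoa4 and Apoc2 spread the most, from 152 to 2887 TPM and from 206 to 1053 TPM, while Apob stays within 371 to 527 TPM.

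Apob encodes the single large protein that forms the scaffold of each VLDL particle. It had 527, 394, 371 and 388 TPM in Myc-labelled livers 1 to 4, against 412, 521, 473 and 431 TPM in controls 1 to 4. Myc-labelled liver 1 was the highest of all and the other 3 Myc-labelled livers were the lowest 3 of the 8. The means were 419.9 ± 72.0 TPM in Myc-labelled livers and 459 ± 48.6 TPM in controls (SD, n = 4 each), a log2 difference of -0.14 ± 0.18 (SE; limma adjusted p = 1.0). With a highest-to-lowest ratio of 1.42 it was the steadiest of the 10.

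The structural proteins of HDL come next. Apoa1, which forms the HDL particle and activates the cholesterol-esterifying enzyme LCAT, had 11799, 14016, 15496 and 10572 TPM in Myc-labelled livers 1 to 4, against 16045, 12175, 14022 and 14525 TPM in controls 1 to 4. Its lowest 2 values were Myc-labelled livers 4 and 1, and its highest 2 were control 1 and Myc-labelled liver 3. The difference was -0.14 ± 0.19 on the log2 scale (limma adjusted p = 1.0; 95% interval -0.56 to 0.28). Apoa2, the second protein of HDL, had 4447, 5037, 2906 and 4681 TPM in Myc-labelled livers 1 to 4, against 5522, 3248, 4184 and 4747 TPM in controls 1 to 4. It was lowest in Myc-labelled liver 3 and control 2 and highest in control 1, and the groups overlapped throughout (-0.06 ± 0.24, limma adjusted p = 1.0). Apom, a lipocalin that rides on HDL and carries sphingosine-1-phosphate, had 244, 276, 240.5 and 247 TPM in Myc-labelled livers 1 to 4, against 265, 190.4, 282 and 331 TPM in controls 1 to 4. The Myc-labelled values lay inside the range of the controls, and its log2 difference was -0.06 ± 0.20 (limma adjusted p = 1.0).

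Apoe had 16236, 22502, 12685 and 18384 TPM in Myc-labelled livers 1 to 4, against 19660, 17915, 19559 and 18620 TPM in controls 1 to 4. The 4 controls sat close together and Myc-labelled livers lay on both sides of them, so that the coefficient of variation was 23.5% in Myc-labelled livers and 4.37% in controls. The difference of the spreads was not tested. The means were 17452 ± 4106 TPM in Myc-labelled livers and 18938 ± 828 TPM in controls (SD, n = 4 each), with a log2 difference of -0.15 ± 0.20 (limma adjusted p = 1.0). Kupffer cells, the resident macrophages of the liver, also express Apoe. The summed level of 10 Kupffer cell markers was lowest in Myc-labelled liver 3 at 664 TPM, the library with the lowest Apoe. It was highest in control 2 at 1779 TPM, the control with the lowest Apoe, and 1004 TPM in Myc-labelled liver 2, the library with the highest Apoe. Over the groups the marker sum was 664 to 1243 TPM in Myc-labelled livers and 864 to 1779 TPM in controls. In the log2 difference 10 of 10 markers were below 0 and none was called. The part of these cells in the Apoe level was not tested.

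The C apolipoproteins and Apoa5 set the pace of triglyceride hydrolysis. Apoc3 encodes the inhibitor of lipoprotein lipase and of remnant uptake, and had 2629, 3143, 1842 and 1785 TPM in Myc-labelled livers 1 to 4, against 3412, 2587, 2944 and 3187 TPM in controls 1 to 4. Myc-labelled livers 3 and 4 were the lowest, below every control, and Myc-labelled livers 1 and 2 lay within the control range. The means were 2349.7 ± 654 TPM in Myc-labelled livers and 3032 ± 353 TPM in controls (SD, n = 4 each). Its log2 difference of -0.40 ± 0.22 was the farthest from 0 of the 10 (95% interval -0.89 to 0.09, limma adjusted p = 1.0). Before adjustment the limma p was 0.0974. Both low libraries were among the 3 with Xist near 0, but so was control 3, at 2944 TPM. The log2 difference was -0.70 in those 3, set against control 3 alone, and -0.08 in the 5 with high Xist. With Xist as a term in the limma fit it was -0.31.

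Apoa5, which promotes the action of lipoprotein lipase and whose loss raises plasma triglyceride, had 1506, 1349, 1103 and 672 TPM in Myc-labelled livers 1 to 4, against 1420.2, 1251, 1000.25 and 1226 TPM in controls 1 to 4. Myc-labelled liver 4 was the lowest and Myc-labelled liver 1 the highest, so the controls lay within the Myc-labelled range (-0.13 ± 0.26, limma adjusted p = 1.0). The 3 libraries with Xist near 0 were the lowest 3 of the 8 in Apoa5, at a mean of 925 TPM, against 1350.3 TPM in the 5 with high Xist. That contrast was noticed in the data and was not tested.

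Apoc1, an inhibitor of cholesteryl ester transfer protein in humans and of remnant uptake, had 2773, 3812.5, 1556 and 3526 TPM in Myc-labelled livers 1 to 4, against 3908, 2529, 3168 and 3029 TPM in controls 1 to 4. Myc-labelled liver 3 stood lowest, control 1 highest, and the groups overlapped (-0.18 ± 0.28, limma adjusted p = 1.0).

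Apoa4 and Apoc2 varied most between livers. Apoa4 is secreted on triglyceride-rich particles and HDL; in mice the intestine makes much of it and the liver makes more in steatosis and fasting. It had 1845, 343, 306 and 152 TPM in Myc-labelled livers 1 to 4, against 341, 174, 2887 and 369 TPM in controls 1 to 4. One library of each group was high, control 3 and Myc-labelled liver 1, and the other 6 libraries lay between 152 and 369 TPM. The highest level was 18.95 times the lowest, and its coefficient of variation of 126% was above that of 97.8% of the 1038 genes averaging 100 TPM or more, whose median was 21.1%. The log2 difference was -0.27 ± 1.07 (limma adjusted p = 1.0), and its interval of -2.79 to 2.24 takes in differences of several-fold either way. Without control 3 the estimate was 0.57, and without both high libraries it was -0.15.

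Apoc2 encodes the cofactor that lipoprotein lipase requires. It had 532, 334, 523 and 206 TPM in Myc-labelled livers 1 to 4, against 339, 219, 1053 and 309 TPM in controls 1 to 4. Control 3 was again the highest, followed by Myc-labelled livers 1 and 3, and the range was 5.12-fold (coefficient of variation 62.8%, above 94.7% of the same 1038 genes). The log2 difference was -0.09 ± 0.49 (limma adjusted p = 1.0). It was 0.39 without control 3. Gm44805, an annotated gene on the same strand that spans Apoc4 to Apoc2, had 418, 221, 304 and 343 TPM in Myc-labelled livers 1 to 4, against 218, 244, 711 and 191 TPM in controls 1 to 4, and reads of the shared exons can be split between both, so the level of Apoc2 is uncertain. With the pair summed, control 3 was still highest at 1765 TPM and the log2 difference was 0.02.

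Creb3l3, a liver transcription factor that activates Apoa4 and Apoc2 in mice, was at 219 TPM in Myc-labelled liver 1, the highest of the 8, while control 3, at 140 TPM, lay inside the 105 to 186 TPM of the other 6 libraries. The acute-phase genes, 12 secreted proteins of the inflamed liver, had their lowest sum in control 3 (31538 TPM) and their highest in Myc-labelled liver 3 (107834 TPM). Enterocyte markers, listed because the intestine makes Apoa4, Apob and Apoa1, summed to 42.0 to 144 TPM in Myc-labelled livers and 43.0 to 80.5 TPM in controls, with Myc-labelled liver 1 the highest. Fabp2, an intestinal fatty acid binding protein, was at 81.7 TPM in Myc-labelled liver 1 and at 7.30 to 29.6 TPM in the other 7 libraries, with control 3 second, and Vil1 was at 1.28 TPM in Myc-labelled liver 1 and at most 0.561 TPM in the others. Vil1 in control 3 was at 0.20 TPM, below controls 1 and 4. Anpep made up most of the rest of the sum and was highest in control 4, at 60.7 TPM against 59.7 TPM in Myc-labelled liver 1. Slc5a1 was also highest in control 4, Cdh17 in Myc-labelled liver 4, and Lct and Cdx2 in Myc-labelled liver 3. Of the 10 markers Sis, Alpi and Cdx1 were listed at 0 in all 8 libraries. The part of these measures in the Apoa4 and Apoc2 levels was not tested. Control 3 was near 0 for Xist and Myc-labelled liver 1 was not.

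The start regions of Apoa4 and Apoc2 are shown because these are the genes with the widest range, and that of Apoa5 because it was the 1 member in 8 with a canonical E-box, the letters that Myc with Max is known to bind. Each runs from 250 bases before to 50 after the start site, 5′ to 3′ on the gene's strand, from RefSeq on GRCm38.p6. Capitals mark matches, on either strand, to TATAAA (the TATA box), AGGTCA (a nuclear receptor recognition hexamer), CAAAGTCC (an HNF4A-type motif), CACGTG (the E-box) or TTGCNNCA (a C/EBP-type motif). The regions are chr9:46240594-46240893 on the plus strand for Apoa4, whose RefSeq start lies 148 bases from the gene start in the tables, chr7:19677892-19678191 on the minus strand for Apoc2 and chr9:46268383-46268682 on the plus strand for Apoa5.
Apoa4: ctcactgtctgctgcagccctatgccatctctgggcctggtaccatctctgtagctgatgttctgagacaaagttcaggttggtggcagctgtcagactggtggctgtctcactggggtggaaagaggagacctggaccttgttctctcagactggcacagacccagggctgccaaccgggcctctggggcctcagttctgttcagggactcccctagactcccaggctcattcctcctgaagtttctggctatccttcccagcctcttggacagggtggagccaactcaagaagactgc
Apoc2: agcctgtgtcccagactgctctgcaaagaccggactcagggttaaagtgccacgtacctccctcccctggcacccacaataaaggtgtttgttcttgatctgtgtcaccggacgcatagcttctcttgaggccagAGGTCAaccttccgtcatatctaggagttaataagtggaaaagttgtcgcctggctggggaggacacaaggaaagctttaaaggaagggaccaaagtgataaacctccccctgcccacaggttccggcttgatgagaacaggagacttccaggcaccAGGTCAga
Apoa5: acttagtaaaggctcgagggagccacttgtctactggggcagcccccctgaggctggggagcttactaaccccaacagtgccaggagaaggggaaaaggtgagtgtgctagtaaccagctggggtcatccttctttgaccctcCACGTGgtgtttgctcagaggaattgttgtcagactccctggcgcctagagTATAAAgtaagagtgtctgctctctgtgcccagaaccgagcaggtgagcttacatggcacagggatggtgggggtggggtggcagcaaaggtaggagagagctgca
Apoa4 held none of the 5 motifs, Apoc2 held AGGTCA 2 times, and Apoa5 held CACGTG and TATAAA 1 time each. Of 32851 mouse promoter windows of the same length, 16.3% held AGGTCA, 7.15% CACGTG and 13.6% TATAAA. Binding of Myc or of any other factor to the regions shown was not tested. RefSeq windows were at hand for 8 of the 10 genes, and the other two are Apoc1 and Apoc3. TATAAA was also in Apoa2 and Apob, TTGCNNCA was in Apoa1 (11.4% of all windows), and CAAAGTCC was in none of the 8 (1.42% of all windows).

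The pairs of genes that varied together were next asked about over all 8 libraries. Among 45 pairs, 2 passed the adjusted threshold, Apoa2 with Apoc1 and Apoa4 with Apoc2. Apoa2 and Apoc1 had Pearson's r = 0.91 (exact permutation p = 0.0007, adjusted 0.0312 over the 45) and Spearman's rho = 0.88 (adjusted 0.163). Apoa2 lies on chromosome 1 and Apoc1 on chromosome 7. Without the 2 libraries farthest from the Apoa2 median r was 0.757, after centring on the group means it was 0.92, and after centring within the 2 Xist classes it was 0.90. Leaving out each library in turn gave r of 0.85 to 0.96, but the pair passed the adjusted threshold in only 2 of these 8 fits on 7 libraries (without Myc-labelled liver 4 and without control 3), and it did not pass by rank. Apoc1 and Apoe, neighbours on chromosome 7, had r = 0.92 (exact permutation p = 0.0036, adjusted 0.0539), which missed the threshold, and r was 0.91 within the Xist classes. Apoa2 with Apoe had r = 0.75 (adjusted exact permutation p = 0.323). In each of the 3 genes Myc-labelled liver 3 was the lowest library. Its 50 highest genes took 52.1% of the signal, against 39.7% to 45.5% in the others. It also had the fewest genes of at least 1 TPM (12442). Without that library r was 0.85 for Apoa2 with Apoc1, 0.72 for Apoc1 with Apoe and 0.42 for Apoa2 with Apoe.

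Apoa4 with Apoc2 passed on all 8 libraries (adjusted exact permutation p = 0.0435), but the Apoa4 levels form 2 separate sets of libraries, so no pooled r is quoted for single pairs with Apoa4. In the 6 libraries left when control 3 and Myc-labelled liver 1 are set aside, their r was 0.75 (exact permutation p = 0.0917). With Gm44805 added to Apoc2, r in those 6 libraries was 0.27 (exact permutation p = 0.654). On all 8 libraries the pair then missed the threshold (adjusted exact permutation p = 0.0949). In those 6 libraries neither exact permutation p was under 0.05. Whether a relation holds there or beyond them cannot be told here.

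**Figure D3:**
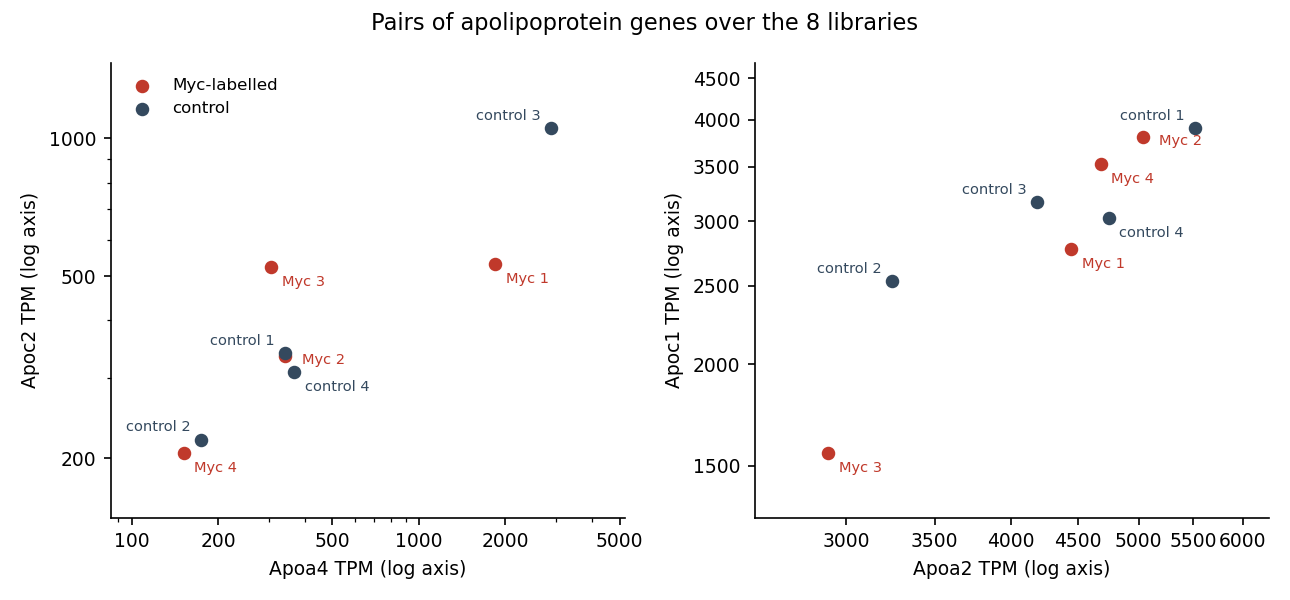
TPM of Apoa4 against Apoc2 (left) and Apoa2 against Apoc1 (right), both axes logarithmic, 1 labelled point a library. On the left control 3 and Myc-labelled liver 1 lie far to the right of the other 6; on the right Myc-labelled liver 3 is lowest on both axes, at 2906 and 1556 TPM.

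Of the 10 genes, 4 lie in 43.34 kb of chromosome 9 (Apoa1, Apoc3, Apoa4 and Apoa5) and 3 in 27.61 kb of chromosome 7 (Apoe, Apoc1 and Apoc2), gene clusters known for liver enhancers that serve several genes. On mm10 they span chr9:46228580-46271919 and chr7:19671579-19699188, while Apob lies on chromosome 12, Apoa2 on 1 and Apom on 17, and all 10 are annotated as protein coding. Genes on the opposite strand overlap Apoa4 and Apoa5 and reached at most 3.71 TPM. The 3 pairs of the chromosome 9 cluster without Apoa4 had r of 0.47 (Apoa1 with Apoc3 and with Apoa5) and 0.68 (Apoa5 with Apoc3, adjusted exact permutation p = 0.450). The 3 pairs within the chromosome 7 cluster were uneven, Apoc1 with Apoe at 0.92 but Apoc2 at -0.22 and -0.19 with the other two. Over all 9 pairs within a cluster, Apoa4 included, the median r was above that of the other 36 by 0.16, a description with no test, as pairs share genes and libraries and those with Apoa4 rest on its separate sets. As ratios to Alb that difference was -0.67, and without Myc-labelled liver 4 it was -0.32, so its direction rests on the scale and on 1 library.

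**Figure D4:**
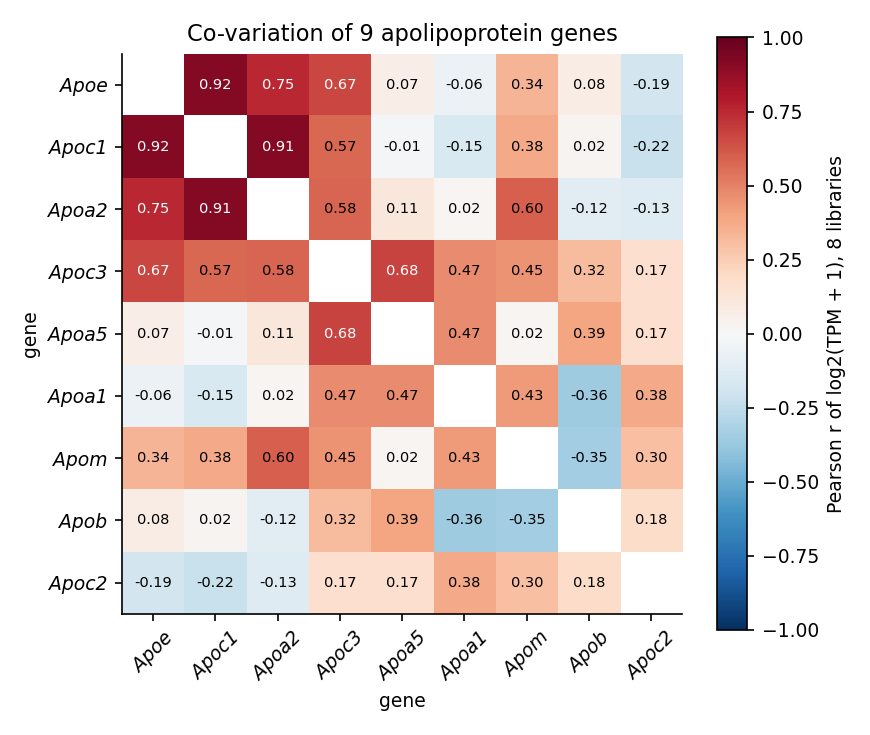
Pearson's r of log2(TPM + 1) over the 8 libraries for 9 of the 10 genes, Apoa4 left out because its libraries form separate sets. Apoa2, Apoc1 and Apoe form the darkest block, with r of 0.91 (Apoa2 with Apoc1), 0.92 (Apoc1 with Apoe) and 0.75 (Apoa2 with Apoe). Without Myc-labelled liver 3 these were 0.85, 0.72 and 0.42.

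Among 6203 genes averaging 10 TPM or more, the members and genes without an established symbol set aside, those most like each of the 10 but Apoa4 over the 8 libraries are given as a description, with r and no test. Nearest to Apoa2 was Kynu (0.98), an enzyme of tryptophan breakdown, then Gabarapl1 and Higd2a (both 0.97). Nearest to Apoc1 were Lyplal1 (0.97), Rer1 and Ndufb10 (both 0.96), and to Apoe Tkfc (0.95), Myl12b and Phpt1 (both 0.94). For Apob they were Ppp4r3b (0.98), Mlx (0.95) and Prpf38b (0.94), and for Apoa5 Letmd1 (0.98), Pde3b (0.96) and Stard5 (0.95). Apoa1 was followed by Tk1, Ttc39c (both 0.94) and Sult1b1 (0.92), Apoc3 by Ppp2r5e (0.95), Mrpl12 and Ccdc107 (both 0.94), and Apom by Ocln (0.94), Irf2 (0.93) and Rbm4 (0.91). For Apoc2 they were Gna12, Enpp2 (both 0.88) and Slc16a12 (0.87).

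The other genes of lipoprotein metabolism were taken from 6 lists with 98 genes, of which 90 were tested. None was called, none had an unadjusted limma p under 0.05 (1.86% of all genes did) and none had groups that did not overlap. Of the 90 estimates 31 were above 0 and 59 below, with a median of -0.06.

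Among 17 other apolipoproteins 11 were tested, with 2 estimates above 0, 9 below and a median of -0.12. Clu, a secreted chaperone also called apolipoprotein J, averaged 3314 ± 819 TPM in Myc-labelled livers and 2650.3 ± 473 TPM in controls (SD, n = 4 each). Apoc4, the neighbour of Apoc2, averaged 904 ± 197 TPM in Myc-labelled livers and 1096 ± 188 TPM in controls. Gm44805 overlaps Apoc4 on the same strand too, so its level is likewise uncertain. Apoh, a phospholipid-binding plasma protein, averaged 2229.8 ± 359 TPM in Myc-labelled livers and 2589 ± 440 TPM in controls. Apol9a averaged 25.4 ± 8.27 TPM in Myc-labelled livers and 58.4 ± 63.7 TPM in controls, where control 4 alone was at 154 TPM.

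The 18 genes of particle assembly and secretion, all tested, had 7 estimates above 0, 11 below and a median of -0.02. Sort1, a sorting receptor for apolipoprotein B, averaged 4.79 ± 0.835 TPM in Myc-labelled livers and 3.22 ± 1.26 TPM in controls, a log2 difference of 0.49 ± 0.23 (limma adjusted p = 1.0). Its control 3, at 5.07 TPM, lay inside the Myc-labelled range. Vmp1 averaged 139.7 ± 24.4 TPM in Myc-labelled livers and 119 ± 6.35 TPM in controls, and P4hb, a subunit of the lipid transfer protein that loads apolipoprotein B, 1015 ± 139.5 TPM in Myc-labelled livers and 865 ± 212 TPM in controls. Mia3, which helps export large secreted cargo, averaged 84.97 ± 14.3 TPM in Myc-labelled livers and 100.3 ± 21.7 TPM in controls.

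The 15 genes of HDL formation and remodelling had 6 estimates above 0, 9 below and a median of -0.06. Abcg8, a subunit of the sterol exporter into bile, averaged 36.6 ± 3.10 TPM in Myc-labelled livers and 30.3 ± 9.69 TPM in controls. Lcat averaged 564 ± 78.1 TPM in Myc-labelled livers and 661 ± 146 TPM in controls, Abca1, the pump that lipidates apolipoprotein A-I, 27.6 ± 5.04 TPM in Myc-labelled livers and 24.4 ± 10.2 TPM in controls, and Soat2, a cholesterol-esterifying enzyme, 53.4 ± 8.21 TPM in Myc-labelled livers and 45.3 ± 17.3 TPM in controls.

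The 11 genes of lipolysis control had 3 estimates above 0, 8 below and a median of -0.12. Angptl4, a secreted inhibitor of lipoprotein lipase, averaged 55.5 ± 17.0 TPM in Myc-labelled livers and 69.5 ± 20.04 TPM in controls. Gpihbp1, which holds lipoprotein lipase on capillary endothelium, averaged 35.1 ± 10.6 TPM in Myc-labelled livers and 42.5 ± 15.2 TPM in controls, and Pcsk5 4.82 ± 0.675 TPM in Myc-labelled livers and 5.72 ± 1.54 TPM in controls.

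Of 15 genes of particle uptake 13 were tested, with 5 estimates above 0, 8 below and a median of -0.05. Lrp1, a remnant receptor, averaged 98.4 ± 14.1 TPM in Myc-labelled livers and 122 ± 48.1 TPM in controls, and Lsr, the lipolysis-stimulated receptor, 167 ± 82.6 TPM in Myc-labelled livers and 183 ± 44.3 TPM in controls. Cd36, a fatty acid and lipoprotein receptor, averaged 72.8 ± 28.3 TPM in Myc-labelled livers and 88.8 ± 25.2 TPM in controls, and Gpc4, a heparan sulfate proteoglycan, 42.7 ± 7.60 TPM in Myc-labelled livers and 37.3 ± 3.01 TPM in controls.

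The 22 transcriptional regulators had 8 estimates above 0, 14 below and a median of -0.11. Nr1h3, the liver X receptor that activates the Apoe and Apoc1 cluster in macrophages, averaged 56.0 ± 12.3 TPM in Myc-labelled livers and 73.4 ± 19.6 TPM in controls (log2 difference -0.38 ± 0.23, limma adjusted p = 1.0). Esrra averaged 23.1 ± 6.24 TPM in Myc-labelled livers and 28.7 ± 5.02 TPM in controls, and Ppargc1a, a coactivator of fasting metabolism, 6.98 ± 2.89 TPM in Myc-labelled livers and 5.47 ± 1.14 TPM in controls.

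**Figure D5:**
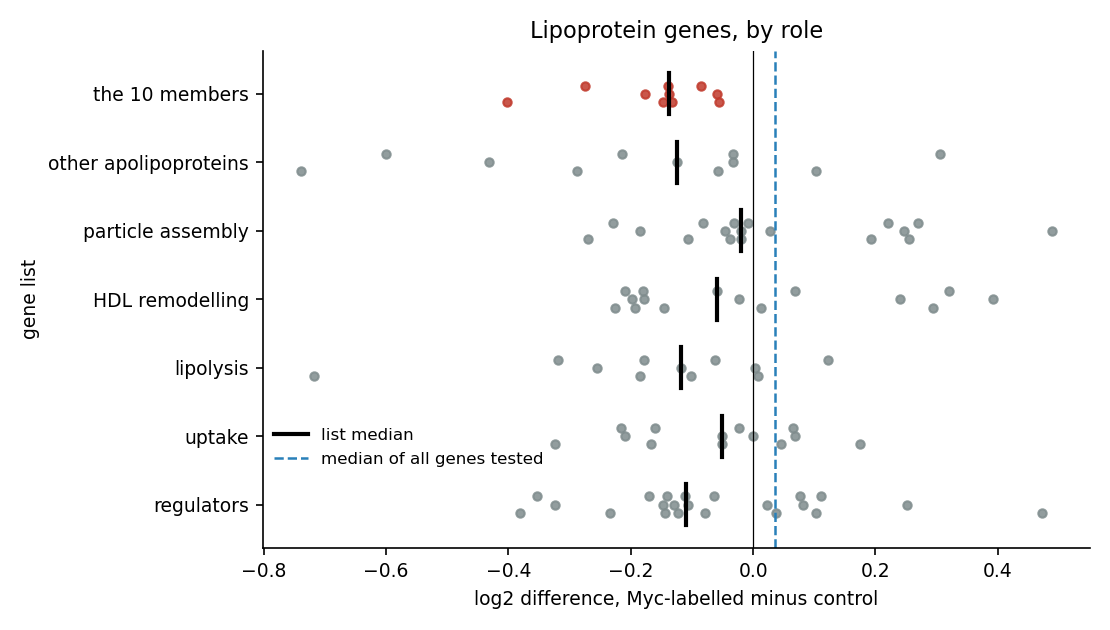
The log2 difference, Myc-labelled minus control, of each tested gene by role, 1 point a gene, with the median of each list (black bar) and of all 13055 genes (dashed line, 0.04). The 10 members have a median of -0.14 and the 6 lists medians between -0.12 and -0.02.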

How the data were processed

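Liver RNA of 4 Myc-labelled and 4 control mice was sequenced from mRNA libraries made with a Hieff NGS kit, per the labels' protocols. HISAT2, StringTie and mm10 are named in the submitters' processing notes, without versions, and no source used here states the strand setting. Each deposited table lists 53816 gene IDs with coverage, FPKM and TPM. The authors' TPM values are per length and scaled to a total for each library, and their FPKM values are per length and scaled to the mapped fragments. Aligned bases were estimated in each library as the most frequent ratio of the deposited coverage to FPKM among expressed genes. No read counts were used, so counting error is unknown for these values. Rows that repeat a gene ID were summed, 0 of them for the 10 genes.

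Differences are Myc-labelled minus control on log2(TPM + 1), from limma 3.58.1 (R 4.3.3, trended and robust) over the 13055 genes averaging 1 TPM or more, and adjustment was by Benjamini-Hochberg over all of them. Such log2 differences understate the change of low genes. Intervals are at 95%, and p-values are two-sided. Ratios were tested by exact permutation over 70 assignments, and the 45 correlations by exact permutation of the pairings, in Python 3.11.15 with scipy 1.17.1. The limma fit was tested on simulated data. The labels describe separate mice. The members and gene lists were chosen with earlier results of these data known. The named pathway genes are the 4 per list of lowest p at 2 TPM or more in the higher group, some of which are not reported here, and the 3 nearest genes per member are the non-members of highest r. Transferrin was looked up as Trf, the symbol in the tables. Alternatives were pseudocounts of 0.1 and 5, a filter of 5 TPM or none, FPKM, other scaling, library weights, Xist or the replicate number in the fit, and leaving out each library.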

Additional observations from a re-analysis of the deposited data

Results flagged for a closer look

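In 4 of 20 gene-by-group sets of 4 libraries, the TPM of 1 library lay so far from the other 3 that its gap exceeded Dixon's 95% critical value, a mark that chance reaches in about 1 of 20 sets. Apoa4 gave it in both groups, through Myc-labelled liver 1 at 1845 TPM and control 3 at 2887 TPM. Apob gave it through Myc-labelled liver 1 at 527 TPM, and Apoc2 through control 3 at 1053 TPM. On the log2 scale 1 of the 20 sets, Apob in Myc-labelled livers, was still past that value.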

How the results depend on the processing

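No member was called in any alternative run, and limma called 1 gene of 13055 with library weights and 0 in the others. The estimates of Apoa1, Apob and Apoc3 stayed below 0 in 20 of 20 alternatives. With library weights the log2 difference was 0.13 for Apoa2, 0.043 for Apoa5, 0.14 for Apoc1 and 0.080 for Apoe, and with Xist in the fit it was 0.0057 for Apoa5. Leaving out each library in turn gave -0.20 to 0.12 for Apoa2, -0.99 to 0.57 for Apoa4, -0.28 to 0.11 for Apoa5, -0.33 to 0.10 for Apoc1, -0.37 to 0.39 for Apoc2 and -0.21 to 0.054 for Apom. Apoc2 was at 0.21 without control 3 and Myc-labelled liver 1 together and at 0.018 when summed with Gm44805, both chosen after seeing the data. Of 45 pairs 2 were past the threshold; the count was 0 by rank, 0 with median-of-ratios scaling, 1 as ratios to Alb, 3 with FPKM, 3 after centring on the group means, 0 without both libraries, 1 with Gm44805 and 0 to 3 when each library was left out. The excess of r within clusters, 0.16, was -0.67 as ratios to Alb and -0.32 to 0.27 with each library left out and 0.446 without both. The causes were not tested.

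The groups share replicate numbers, but same-numbered libraries did not deviate together (correlations of 0.128, -0.058, 0.065 and 0.07). With the replicate block 0 of the 10 genes and 0 of all genes were called. Depth per gene is unknown, as no read counts were used.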

Other observations

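Serum amyloid A, an acute-phase apolipoprotein that can displace apolipoprotein A-I from HDL, was outside the 10 genes. Of its genes, Saa1 had 4188, 2347, 23611 and 8206 TPM in Myc-labelled livers 1 to 4, against 10872, 6676, 316 and 6092 TPM in controls 1 to 4. Saa2 had 2464, 1611, 28917 and 8469 TPM in Myc-labelled livers 1 to 4, against 8564, 7075, 155 and 4454 TPM in controls 1 to 4. In Myc-labelled liver 3 Saa1 exceeded Apoa1 (15496 TPM), and in the other 7 libraries Apoa1 was the higher of the pair. Saa1 and Saa2 were not added together for this comparison. Control 3, with the lowest Saa1, had the highest Apoa4 and Apoc2. Myc-labelled liver 2, next lowest in Saa1, had 343 TPM of Apoa4 and 334 TPM of Apoc2. Myc-labelled liver 1 followed, with 1845 TPM of Apoa4 and 532 TPM of Apoc2. Myc-labelled liver 3, with the highest Saa1, had 306 TPM of Apoa4 and 523 TPM of Apoc2. The relation was not tested.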
